A study of Mus musculus with 8 samples.

Results

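Retinoic acid metabolism and response was followed through 9 genes, *Aldh1a1*, *Aldh1a2*, *Aldh1a3*, *Rdh10*, *Dhrs3*, *Crabp2*, *Rarb*, *Rarg* and *Cyp26b1*, each taken by its gene name from the 53465 genes counted by RNA-seq. The 8 libraries came from 2 mouse pancreatic ductal adenocarcinoma (PDAC) cell lines, named B73 and B87, that were derived from primary tumors of KC-shSmad4 mice. Both lines carry Ptf1a-Cre, which acts in the pancreas, the Cre-dependent rtTA3 transactivator with an mKate2 reporter, and a doxycycline (Dox)-inducible, GFP-linked short hairpin RNA against *Smad4*. DoxOn cells were kept on Dox (Smad4 off) and DoxOff cells were without it for 5 days before plating (Smad4 on). Treatment began 24 h after plating and lasted 24 h. Either state received TGFβ1 at 100 pM or, to block signalling by the type I TGFβ receptor, the kinase inhibitor SB505124 at 2.5 µM. Each of the 4 groups therefore held 2 libraries, 1 from each line, and each line stands for 1 tumor. The presence of Dox and the state of *Smad4* cannot be told apart in these groups, and the labels name no retinoid added to the medium. No group was left untreated, so every change "with TGFβ1" or "under TGFβ1" between treatments is against SB505124. Added TGFβ1, blocked basal signalling and other effects of the inhibitor cannot be told apart.

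Retinoic acid is made from vitamin A inside the cell. Retinol is first oxidised to retinal, reversibly, and retinal is then oxidised to retinoic acid by the retinaldehyde dehydrogenases of the ALDH1A family. Retinoic acid is carried by small binding proteins, broken down by CYP26 enzymes, and acts through nuclear receptors (RARs, paired with RXRs) that bind repeated DNA motifs near their target genes. It is known for its part in laying out the embryonic pancreas and in holding epithelial cells in a differentiated state.

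Promoter sequences are shown for 4 members. *Aldh1a1*, *Dhrs3* and *Cyp26b1* are shown because they differed between states, treatments or lines, and *Rarb* because it held a match to the retinoic acid response motif. They span 250 bases before to 50 after a transcription start in RefSeq (GRCm38.p6), which lists 10 starts for 6 of the 9 members. Each is written 5′ to 3′ along the gene, and for *Aldh1a1* and *Dhrs3*, which have several starts, the window with a motif match is given. Capitals mark the DR5 (a direct repeat of the receptor half-site with 5 bases between, searched on both strands) and CAGAC, a short SMAD-binding motif, which reads GTCTG on the other strand.

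Rarb, chr14:16575427-16575726, minus strand: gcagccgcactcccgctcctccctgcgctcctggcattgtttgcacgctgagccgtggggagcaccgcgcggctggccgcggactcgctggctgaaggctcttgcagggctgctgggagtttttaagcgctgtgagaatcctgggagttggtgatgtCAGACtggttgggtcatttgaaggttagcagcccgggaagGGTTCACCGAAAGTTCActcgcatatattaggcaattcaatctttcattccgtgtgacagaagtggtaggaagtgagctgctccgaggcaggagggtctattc

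Aldh1a1, chr19:20601718-20602017, plus strand: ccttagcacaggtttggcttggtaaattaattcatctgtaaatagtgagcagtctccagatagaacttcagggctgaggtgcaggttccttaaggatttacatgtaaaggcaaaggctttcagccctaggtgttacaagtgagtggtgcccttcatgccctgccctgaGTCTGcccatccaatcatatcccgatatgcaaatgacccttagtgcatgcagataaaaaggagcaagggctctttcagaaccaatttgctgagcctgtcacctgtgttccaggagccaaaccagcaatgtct

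Dhrs3, chr4:144892887-144893186, plus strand: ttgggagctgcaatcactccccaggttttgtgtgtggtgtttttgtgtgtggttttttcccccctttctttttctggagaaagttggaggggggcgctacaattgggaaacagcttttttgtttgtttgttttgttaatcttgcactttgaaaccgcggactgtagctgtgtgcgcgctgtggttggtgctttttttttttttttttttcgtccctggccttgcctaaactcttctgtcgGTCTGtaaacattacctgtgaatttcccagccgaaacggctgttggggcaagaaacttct

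Cyp26b1, chr6:84593761-84594060, minus strand: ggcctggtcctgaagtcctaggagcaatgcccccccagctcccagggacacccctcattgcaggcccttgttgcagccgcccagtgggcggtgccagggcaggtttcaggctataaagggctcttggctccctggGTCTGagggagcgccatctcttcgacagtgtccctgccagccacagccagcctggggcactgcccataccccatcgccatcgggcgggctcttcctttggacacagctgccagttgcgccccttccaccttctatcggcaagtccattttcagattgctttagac

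The *Rarb* window held the DR5 match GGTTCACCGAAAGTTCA, with its first base at position -53 from the start, and none of the other 9 windows held one. Among all 32851 promoter windows of this length, 32 (0.0974%) held a DR5. No member window held the related DR2 or DR1 repeats, which occurred in 0.268% and 0.222% of all windows. CAGAC occurred in 49.6% of all windows and once in a single window of each of *Aldh1a1*, *Dhrs3*, *Rarb*, *Rarg* and *Cyp26b1*, without overlap with the DR5 of *Rarb*. The other windows of *Aldh1a1*, *Dhrs3* and *Rarg*, and that of *Aldh1a2*, held none. The longer palindrome GTCTAGAC, present in 0.213% of all windows, was in none. These matches describe letters only, and binding was not measured.

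Totals ran from 18389235 to 23440550 counts per library, so that 3 counts, the smallest level taken as detectable, correspond to 0.125 to 0.162 CPM (counts scaled to a common library size). Such floors cover counting error only. *Smad4* itself lay between 33.7 and 35.5 CPM in the 4 DoxOn libraries and between 97.4 and 117 CPM in the 4 DoxOff libraries, so that it rose on Dox withdrawal with either treatment. The log2 fold change was 1.73 ± 0.0919 (SE) with TGFβ1 (edgeR adjusted p = 0.00084) and 1.62 ± 0.0919 with SB505124 (adjusted p = 0.00234). Of 9 markers of ductal epithelium, 7 were above the floor in every library, with sums of 1240 to 6250 CPM, although *Epcam* reached no more than 39 counts. At or under the floor in every library were 4 of 7 stellate cell markers (*Des*, *Hand1*, *Lrat* and *Cygb*, with sums of 0.264 to 1.05 CPM for the list), 4 of 7 leukocyte markers (*Ptprc*, *Adgre1*, *Cd3e* and *Lyz2*, while 1 of the 7 was above it in every library and the list summed to 1.38 to 6.49 CPM), 3 of 8 fibroblast markers (*Dcn*, *Lum* and *Thy1*), 4 of 5 acinar markers and 1 of 4 endothelial markers (*Tek*). Above the floor in every library were 3 of the 8 fibroblast, 1 of the 5 acinar, 1 of the 4 endothelial and 0 of the 7 stellate markers. The fibroblast list summed to 5.84 to 161 CPM under SB505124 and 10.6 to 668 CPM under TGFβ1. The endothelial list summed to 2.25 to 5.18 CPM in Smad4-off and 0.702 to 2.66 CPM in Smad4-on cells under SB505124, and to 7.24 to 26.1 and 3.42 to 4.79 CPM under TGFβ1. Their part in the results below was not tested.

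Members differed widely in level. Per kb of transcript, averaged over the libraries, *Rdh10* was highest at 61 CPM per kb, followed by *Aldh1a1* at 18.5 and *Rarg* at 17.6. *Dhrs3* averaged 3.65 CPM per kb and *Aldh1a3* 1.51, then *Cyp26b1* 0.396, *Crabp2* 0.339 and *Rarb* 0.115. Across the libraries the ranges of neighbours in this order overlapped, except that the lowest *Rarg* library (13.7 CPM per kb) lay above the highest *Dhrs3* library (10.1 CPM per kb). *Aldh1a2*, the retinaldehyde dehydrogenase of the early embryo, had 0 to 2 counts in every library and was not detectable at this depth. It was the 1 member left out of the tests by the filter on low counts, and the counts of members below are of the other 8.

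Genes were called when their edgeR adjusted p was under 0.05 over 14301 tested genes and their change exceeded 2-fold, the thresholds of the study. Because the members were picked with these data known, their values are given as a description and no p is printed for them. "Rose" and "fell" are used of called genes only. In RNA from whole cultures, fewer cells that express a gene and less RNA per cell cannot be told apart.

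*Rdh10* and *Dhrs3*, whose enzymes move vitamin A between retinol and retinal, were called with TGFβ1 in Smad4-on cells, in opposite directions. In Smad4-off cells neither was called. This does not show that the states differed, since the difference between states in the effect of TGFβ1 was called for neither. On the log2 scale it was 0.17 ± 0.204 for *Rdh10* and -3.13 ± 0.796 for *Dhrs3* (-3.09 in B73 and -2.54 in B87). For *Dhrs3* this difference was called in DESeq2 with the line and in edgeR with no filter on low counts. It was called in no fit with 1 library left out. *Rdh10* (chr1:16105774-16133734, plus strand), which oxidises retinol to retinal, stood in B73 at 239 and 242 CPM under SB505124 (Smad4 off and on) and at 402 and 438 CPM under TGFβ1. In B87 it stood at 106 and 102 CPM under SB505124 and at 234 and 266 CPM under TGFβ1. Within each line both TGFβ1 libraries were above both SB505124 libraries, whereas the values of the treatments overlapped across lines because B73 was higher throughout. *Rdh10* rose under TGFβ1 in Smad4-on cells (log2 fold change 1.12 ± 0.146). In Smad4-off cells its log2 fold change was 0.95 ± 0.145, short of the 2-fold threshold. The state of *Smad4* moved it little, by log2 fold changes of 0.16 ± 0.143 under TGFβ1 and -0.01 ± 0.144 under SB505124. Its call in Smad4-on cells was lost without either of the B87 Smad4-on libraries and without the line in the model (no replicate block, log2 fold change 1.03), and over all libraries left out in turn the value stayed between 0.93 and 1.31.

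*Dhrs3* (chr4:144892827-144928209, plus strand), which reduces retinal back to retinol and is a textbook target of retinoic acid, showed the largest change of the members. Under SB505124 it had 594 counts (29.7 CPM) in Smad4-off and 336 counts (18.2 CPM) in Smad4-on cells of B73, against 194 (8.52 CPM) and 399 (16.6 CPM) in B87. Under TGFβ1 the Smad4-off libraries held 210 counts (9 CPM) in B73 and 47 (2.34 CPM) in B87, and the Smad4-on libraries held 11 (0.561 CPM) and 14 (0.714 CPM). The last pair lay below every other library, while the Smad4-off libraries of the treatments overlapped between lines. With TGFβ1, *Dhrs3* fell by 4.86 ± 0.623 on the log2 scale in Smad4-on cells, a 29-fold difference. The log2 fold change in Smad4-off cells, -1.73 ± 0.472, was not called. It was called in DESeq2 with the line, and in edgeR with no filter on low counts or on only the 4 libraries compared. Restoring *Smad4* under TGFβ1 lowered *Dhrs3* by a log2 fold change of -2.99 ± 0.652, with -3.79 in B73 and -1.59 in B87. Under SB505124 the lines differed in sign, with -0.7 in B73 and 0.95 in B87. Per kb, *Rdh10* exceeded *Dhrs3* by a ratio of 4.34 to 9.38 in the SB505124 libraries, 31.5 and 70.3 in the Smad4-off TGFβ1 libraries and 548 and 263 in the Smad4-on TGFβ1 libraries (B73 and B87).

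**Figure D1:**
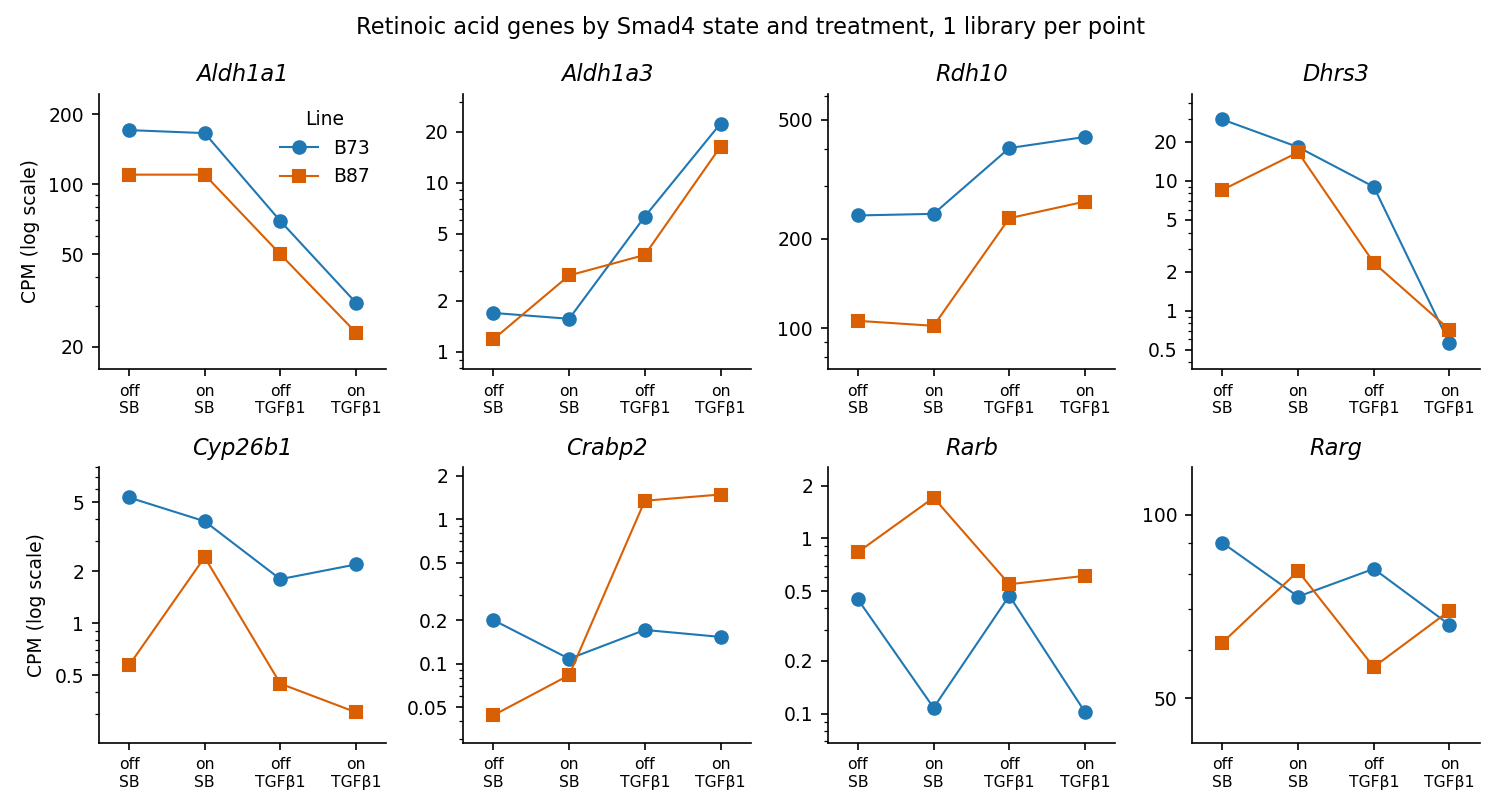
CPM of the 8 detectable members (vertical log axes) in the 4 groups along the horizontal axis (Smad4 off or on, with SB505124 or TGFβ1), with 1 point per library and lines joining the libraries of B73 (circles) and B87 (squares). *Aldh1a1* and *Dhrs3* are lowest in the Smad4-on TGFβ1 libraries, at 30.9 and 23 CPM and at 0.561 and 0.714 CPM, where *Aldh1a3* is highest, at 22.3 and 16.3 CPM.

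The retinaldehyde dehydrogenases, which make retinoic acid, also moved in opposite directions. *Aldh1a1* (chr19:20492715-20643462, plus strand) had in B73 171 CPM in Smad4-off and 166 CPM in Smad4-on cells under SB505124, and 69.5 and 30.9 CPM under TGFβ1. In B87 it had 110 CPM in both states under SB505124, and 50 and 23 CPM under TGFβ1. The 4 TGFβ1 libraries did not overlap the 4 SB505124 libraries, and within TGFβ1 the Smad4-on libraries were below the Smad4-off libraries. *Aldh1a1* fell with TGFβ1 by 2.34 ± 0.0901 on the log2 scale (5.07-fold) in Smad4-on cells and by 1.22 ± 0.0855 in Smad4-off cells. It fell on restoration of *Smad4* under TGFβ1, with log2 fold changes of -1.17 in B73 and -1.11 in B87 and -1.14 ± 0.0887 over both. Under SB505124 the log2 fold change between states was -0.02 ± 0.0834.

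The effect of *Smad4* on *Aldh1a1* thus differed between the treatments by -1.13 ± 0.122 on the log2 scale, -1.13 in B73 and -1.11 in B87. It was the 1 of 8 members called in this interaction, in which 0.189% of all tested genes were called (0.0559% higher, 0.133% lower). Leaving out any of the 8 libraries ended this call, with values between -1.22 and -1.04, and it was also lost with no replicate block, in edgeR (-1.13) and DESeq2 alike. Reads shared with the adjacent paralog *Aldh1a7* could touch few bases, since 1.01% of the 75-base stretches of *Aldh1a1* transcripts also occur in *Aldh1a7*, which had 1 to 154 counts against 452 to 3420 for *Aldh1a1*.

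*Aldh1a3* (chr7:66390890-66427517, minus strand) went the other way. In B73 it had 1.7 CPM in Smad4-off and 1.57 CPM in Smad4-on cells under SB505124, and 6.3 and 22.3 CPM under TGFβ1. In B87 these values were 1.19, 2.83, 3.74 and 16.3 CPM. Every TGFβ1 library was above every SB505124 library, and the Smad4-on TGFβ1 libraries were above all others. *Aldh1a3* rose with TGFβ1 by a log2 fold change of 3.06 ± 0.36 (8.36-fold) in Smad4-on cells and 1.79 ± 0.382 in Smad4-off cells. It rose on *Smad4* restoration under TGFβ1 by 1.95 ± 0.333 on the log2 scale, while under SB505124 the value was 0.67 ± 0.405, with -0.11 in B73 and 1.19 in B87. The difference between treatments in the effect of *Smad4*, 1.27 ± 0.524 (1.92 in B73 and 0.9 in B87, 0.68 to 2.1 over libraries left out), was not called.

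As a share of *Aldh1a1* and *Aldh1a3* together, per kb, *Aldh1a3* made up 1.05% (95% exact interval 0.729 to 1.47) and 0.996% (0.668 to 1.43) in the Smad4-off and Smad4-on SB505124 libraries of B73, and 1.14% (0.752 to 1.65) and 2.67% (2.08 to 3.38) in those of B87. Under TGFβ1 with Smad4 off it was 8.83% (7.51 to 10.3) in B73 and 7.39% (5.86 to 9.17) in B87. With Smad4 on it was 43.6% (40.5 to 46.7) in B73 and 43% (39.4 to 46.6) in B87. The intervals of the lines overlapped in 3 of the 4 groups, and the intervals cover counting error only. The sum of both genes was 35 and 34.1 CPM per kb under SB505124 in B73 (Smad4 off and on) against 15.5 and 11.1 under TGFβ1, and 22.6 and 22.9 against 10.9 and 8.19 in B87.

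**Figure D2:**
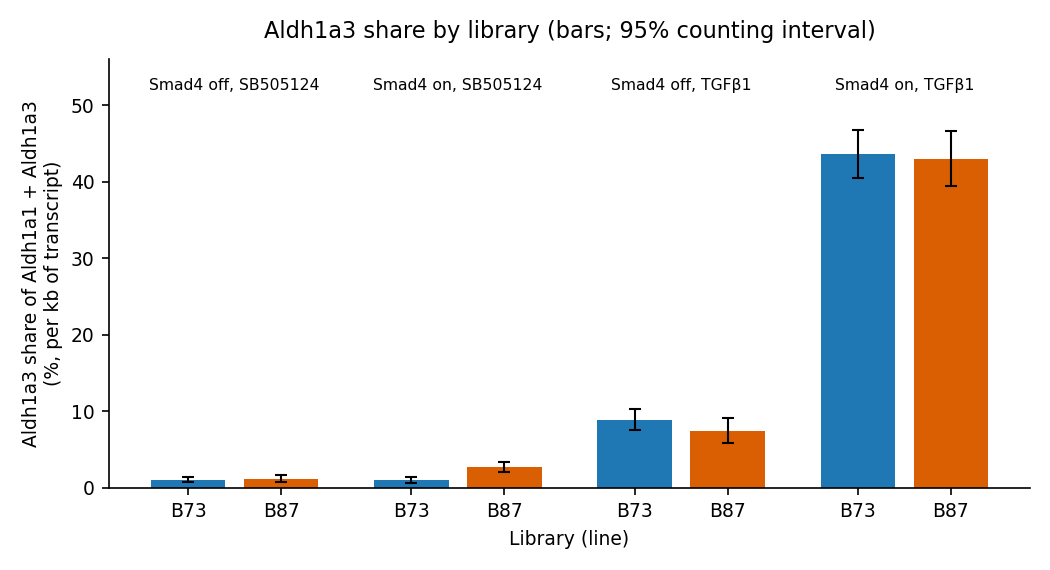
*Aldh1a3* as a percentage of *Aldh1a1* plus *Aldh1a3* per kb of transcript (vertical axis, from 0) in each of the 8 libraries, named by line along the horizontal axis and grouped by Smad4 state and treatment, with error bars for the 95% counting interval. The share is 0.996% to 2.67% under SB505124, 7.39% and 8.83% in Smad4-off cells under TGFβ1, and 43% and 43.6% in Smad4-on cells under TGFβ1.

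The genes of retinoic acid breakdown and binding were near the low end of the members. *Cyp26b1* (chr6:84571414-84593908, minus strand), which inactivates retinoic acid by oxidation, had 107 counts (5.34 CPM) and 72 counts (3.89 CPM) under SB505124 in Smad4-off and Smad4-on cells of B73, and 42 (1.8 CPM) and 43 (2.19 CPM) under TGFβ1. In B87 it had 13 (0.571 CPM) and 58 (2.41 CPM) counts under SB505124, and 9 (0.448 CPM) and 6 (0.306 CPM) under TGFβ1. In each of the 4 groups B73 was above B87. *Cyp26b1* was lower in B87 by a log2 fold change of -2.01 ± 0.435 (4.02-fold), the 1 member of 8 called between the lines, where 8.37% of tested genes were called (3.87% higher and 4.5% lower in B87). This call was lost without 6 of the 8 libraries, all but those of Smad4-on cells under SB505124, with values of -2.73 to -1.56 over the libraries left out. With TGFβ1 its log2 fold change was -1.76 ± 0.602 where Smad4 was on and -1.19 ± 0.599 where it was off, and neither was called. Where Smad4 was on, DESeq2 with the line called it. So did edgeR with no filter on low counts or on only the 4 libraries compared. Leaving out the Smad4-off SB505124 library of B87 or the Smad4-on SB505124 library of B73 gave a call too. Where Smad4 was off, only the fit of the 4 libraries compared called it. The lines differed in size, with -0.8 in B73 and -2.64 in B87 where Smad4 was on and -1.52 and -0.29 where it was off, and leaving out 1 library moved the values between -2.88 and -0.85 and between -1.7 and -0.05.

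*Crabp2* (chr3:87948666-87953376, plus strand), which carries retinoic acid to its receptors, had 2 to 4 counts in the B73 libraries. In B87 it had 1 and 2 counts under SB505124, and 27 (1.34 CPM) and 29 (1.48 CPM) under TGFβ1. It was therefore above the floor only in the TGFβ1 libraries of B87 and, with 4 counts, in the Smad4-off libraries of B73. With TGFβ1 its log2 fold change was 2.98 ± 1.13 where Smad4 was on and 2.45 ± 1.09 where it was off. Neither was called, and both rested on B87 (3.14 and 3.37, against 0.29 and -0.15 in B73). Where Smad4 was on, edgeR called it with no filter on low counts or on only the 4 libraries compared. Leaving out either Smad4-off SB505124 library gave a call too.

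Of the receptors, *Rarg* (chr15:102234938-102257517, minus strand) was expressed evenly, at 56.3 to 89.9 CPM, and its groups overlapped. With Smad4 off and on, B73 had 89.9 and 73.4 CPM under SB505124 and 81.5 and 66 CPM under TGFβ1. B87 had 61.7, 80.8, 56.3 and 69.6 CPM in the same order. Smad4-on cells were thus lower in B73 (log2 fold changes of -0.3 under TGFβ1 and -0.29 under SB505124) and higher in B87 (0.31 and 0.39), with fitted values of 0 ± 0.19 and 0.05 ± 0.189. No change of *Rarg* was called, and with TGFβ1 its log2 fold changes were -0.19 ± 0.189 and -0.14 ± 0.188 in Smad4-on and Smad4-off cells.

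*Rarb* (chr14:16430839-16819156, minus strand), the receptor that is itself a textbook target of retinoic acid, was near the floor in several libraries. Its promoter window, printed above, is the one with the DR5. In B73 it had 9 and 11 counts in the Smad4-off libraries (SB505124 and TGFβ1) and 2 counts in each Smad4-on library. In B87 it had 19 and 41 counts under SB505124 (Smad4 off and on) and 11 and 12 under TGFβ1. B87 was above B73 in every group by CPM, with a log2 difference of 1.61 ± 0.564 that was not called. The log2 fold change with *Smad4* restoration was -1.52 in B73 and 0.14 in B87 under TGFβ1, and -1.42 and 0.95 under SB505124. These counts are uncertain because 34.1% of the exon bases of *Rarb* lie over exons of *Top2b* on the opposite strand, which had 2821 to 4489 counts, and the strand setting of the counting was not stated.

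Counted by comparison, *Smad4* restoration under TGFβ1 called 3 of the 8 members, *Aldh1a3* higher and *Aldh1a1* and *Dhrs3* lower, where 3.12% of all tested genes were called (1.31% higher, 1.8% lower). Under SB505124 it called 0 of 8, where 1.09% of all genes were called (0.636% higher, 0.455% lower), and 0 members had an unadjusted p under 0.05 in edgeR. DESeq2 with the line also called 0. TGFβ1 called 4 of 8 in Smad4-on cells, *Aldh1a3* and *Rdh10* higher and *Aldh1a1* and *Dhrs3* lower (13.9% of all genes, 5.62% higher and 8.31% lower), and 2 of 8 in Smad4-off cells, *Aldh1a3* higher and *Aldh1a1* lower (5.93% of all genes, 3.11% higher and 2.82% lower). The median log2 fold changes of the members were 0.03, 0.09, -0.73 and -0.18 in these comparisons, against -0.01, 0, -0.02 and -0.02 over all tested genes. The 4 comparisons share libraries, and the members were chosen with these contrasts in view, so nothing is read from these shares.

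With no replicate block, edgeR called 0 of the 8 members for *Smad4* under TGFβ1 (3 had an unadjusted p under 0.05) and 0 for TGFβ1 in Smad4-off cells (2 such members), where DESeq2 without the line called 3 and 2. In Smad4-on cells *Aldh1a1*, *Aldh1a3* and *Dhrs3* stayed called in both. For *Smad4* under TGFβ1 the calls of *Aldh1a3* and *Dhrs3* were each lost without any 1 of the 4 libraries compared, with log2 fold changes of 1.65 to 2.32 and -3.74 to -2.15 over all libraries left out, and that of *Aldh1a1* stayed without any 1 library (-1.23 to -1.06). In Smad4-off cells the call of *Aldh1a3* was lost without any 1 of the 4 libraries compared (1.42 to 2.09).

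**Figure D3:**
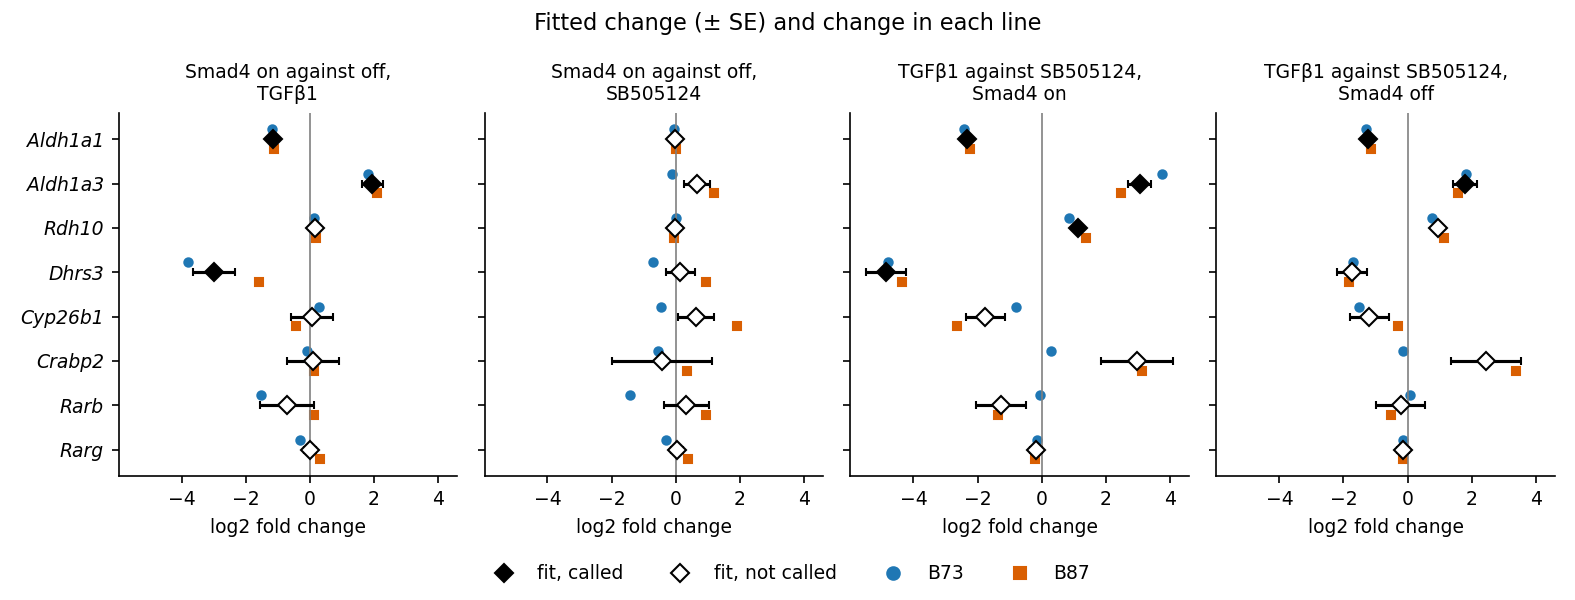
Log2 fold change (horizontal axes) of the 8 tested members (rows) in 4 comparisons, with the fit over both lines as a diamond (filled where called) and bars of ± 1 SE, and the change within B73 (circles) and B87 (squares). *Aldh1a1* and *Dhrs3* lie below 0 and *Aldh1a3* above 0 in both lines in 3 of the 4 comparisons, all but *Smad4* under SB505124.

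Between the lines, the other 7 tested members were not called, although B73 exceeded B87 in every group for *Aldh1a1* (log2 difference of B87 from B73 -0.54 ± 0.0607) and *Rdh10* (-0.98 ± 0.103), both under 2-fold. The difference was -1.09 ± 0.371 for *Dhrs3* and 1.97 ± 0.758 for *Crabp2*. The median over the members was -0.41, against -0.01 over all tested genes.

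Across the 8 libraries, which share their lines and treatments, log2 CPM of *Aldh1a1* and *Dhrs3* correlated with Pearson's r = 0.964, and *Aldh1a3* ran opposite to *Aldh1a1* (r = -0.912) and *Dhrs3* (r = -0.862). The tested genes with the pattern nearest to *Aldh1a1* were *Cbx7*, *Uap1l1* and *Pik3c2b* (r = 0.997, 0.995 and 0.994), and those nearest to *Aldh1a3* were *Rgs12*, *Sar1a* and *Nbl1* (0.989, 0.983 and 0.982). *Qdpr*, *C920006O11Rik* and *Tbc1d17* were nearest to *Dhrs3* (0.995, 0.987 and 0.987), and *Chmp1a*, *Pbp2* and *Dclre1c* to *Rdh10* (0.991, 0.98 and 0.977). For *Cyp26b1* these were *Mfsd12*, *Coro7* and *Cacna1a* (0.979, 0.974 and 0.961), for *Rarg* *4930452B06Rik*, *Gm46212* and *AC132265.1* (0.982, 0.938 and 0.935), for *Crabp2* *Gpbar1*, *Gm16386* and *Stx5a* (0.979, 0.969 and 0.952), and for *Rarb* *Smo*, *Emp2* and *Dact3* (0.983, 0.972 and 0.97). These are the extremes of 14301 correlations over 8 libraries and describe likeness only.

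The wider pathway was read from 73 further genes in 5 lists, of which 47 passed the filter. The lists were written from knowledge of the pathway, but with earlier results of these data known, which limits the p-values printed for their genes. For *Smad4* under TGFβ1, 3 of the 47 rose and 2 fell (1.31% and 1.8% over all tested genes), with a median log2 fold change of -0.08 against -0.01 over all genes. *Stra6*, the cell-surface receptor that takes up retinol and a known target of retinoic acid, had the largest change. It had 161 and 132 counts in the Smad4-off libraries of B73 (SB505124 and TGFβ1) against 4 and 1 in the Smad4-on libraries, and 103 and 70 against 7 and 4 in B87. Its Smad4-off libraries were thus well above its Smad4-on libraries under either treatment. The Smad4-on counts lie near or under the floor of 3 counts, so the size of its fold changes is uncertain. *Stra6* fell on restoration, with log2 fold changes of -5.07 ± 0.538 under TGFβ1 (edgeR adjusted p = 0.00426) and -4.51 ± 0.466 under SB505124 (adjusted p = 0.00801), and in the latter comparison it was the 1 gene of the 47 called (1.09% over all tested genes). With no replicate block in edgeR these p-values were 0.0607 and 0.151, and the SB505124 call was also lost without either SB505124 library of B73 (highest adjusted p = 0.0789, lowest and highest log2 fold change over all libraries left out -5.08 and -4.04).

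*Icam1*, an adhesion molecule, fell under TGFβ1 on restoration of *Smad4*, from 183 to 46 counts in B73 and from 164 to 14 in B87 (log2 fold change -2.52 ± 0.408, edgeR adjusted p = 0.0167). The transcription factor *Bhlhe40* rose by 1.02 ± 0.17 (adjusted p = 0.0187), the membrane ligand *Efnb1* by 1.25 ± 0.181 (adjusted p = 0.0116) and *Ppard*, a nuclear receptor for fatty acids, by 1.01 ± 0.136 (adjusted p = 0.00931) on the log2 scale. Within B73 and B87 the changes were 1.36 and 0.7 for *Bhlhe40*, 1.62 and 0.93 for *Efnb1*, and 1.25 and 0.75 for *Ppard*, so that B87 alone was under 2-fold. The call of *Ppard* was also lost with no filter on low counts and with at least 10 counts in every library. Of the TGFβ1 libraries, leaving out either from B73 ended the calls of *Efnb1* and *Ppard*, leaving out either from B87 ended that of *Icam1*, and leaving out either Smad4-on library or the Smad4-off library of B73 ended that of *Bhlhe40*. Log2 fold changes over all libraries left out ran from -3.22 to -1.98 for *Icam1*, 0.74 to 1.32 for *Bhlhe40*, 0.94 to 1.62 for *Efnb1* and 0.81 to 1.19 for *Ppard*. With no replicate block edgeR called 0 of the 47 in this comparison (11 had an unadjusted p under 0.05) and DESeq2 called 5.

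With TGFβ1 in Smad4-on cells, 12 of the 47 fell and 2 rose (8.31% and 5.62% over all tested genes, median log2 fold change -0.18, against -0.02 over all genes). Of 7 tested genes of retinol uptake and storage, 3 fell, among them the retinol-binding proteins *Rbp2* at -4.01 ± 0.404 (edgeR adjusted p = 0.000636) and *Rbp4* at -2.72 ± 0.436 (adjusted p = 0.00395). In B73 *Rbp2* stood at 16.3 CPM with SB505124 and 0.766 CPM with TGFβ1, and in B87 at 3.16 and 0.306 CPM. Of 8 tested retinol and retinal oxidoreductases, 2 fell. These were *Adh7*, an alcohol dehydrogenase active on retinol, at -3.12 ± 0.271 (adjusted p = 0.000354) and *Dhrs9* at -1.91 ± 0.265 (adjusted p = 0.00225). *Aldh1a7*, the closest paralog of *Aldh1a1*, fell too (log2 fold change -4.24 ± 0.385, edgeR adjusted p = 0.000419), from 154 to 7 counts in B73 and from 29 to 2 in B87.

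Of 10 tested receptors and coregulators in this comparison, *Ppard* rose (log2 fold change 1.68) and *Rxra*, the partner of the retinoic acid receptors (-1.13), and the coactivator *Ncoa3* (-1.11) fell. Of 20 tested response genes, *Bhlhe40* rose, with 65.4 CPM under SB505124 against 518 CPM under TGFβ1 in B73 and 42.7 against 357 CPM in B87 (log2 fold change 3.02 ± 0.183, edgeR adjusted p = 0.000114). Another 4 fell, among them *Icam1* (-1.59), *Nr2f1* (-1.37) and *Meis2* (-1.31). The values of *Rxra*, *Ncoa3*, *Nr2f1* and *Meis2* were added after they had been seen. The call of *Icam1* was lost without the SB505124 library of B73 or the TGFβ1 library of B87 (log2 fold changes over all libraries left out of -2.32 to -1.17), that of *Nr2f1* without the SB505124 library of B87 or either TGFβ1 library (-1.75 to -0.85), and that of *Rxra* without the TGFβ1 library of B73 (-1.27 to -0.99). With no replicate block edgeR called 8 of the 47. Among the calls lost were those of *Rbp2* (edgeR adjusted p = 0.0623), *Rbp4* (0.121), *Aldh1a7* (0.108), *Icam1* (0.149) and *Nr2f1* (0.118). The calls of *Rbp2* and *Aldh1a7* were also lost with at least 10 counts in every library, where neither is tested.

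In Smad4-off cells TGFβ1 lowered 5 of the 47 and raised 1 (2.82% and 3.11% over all tested genes), with a median of -0.17 against -0.02 over all genes. *Bhlhe40* rose by 2.15 ± 0.179 (edgeR adjusted p = 0.00105), and *Aldh1a7* (-3.65 ± 0.37, adjusted p = 0.00209), *Rbp2* (-2.3 ± 0.38, adjusted p = 0.0109), *Adh7* (-1.93 ± 0.253, adjusted p = 0.00485) and *Dhrs9* (-1.78 ± 0.289, adjusted p = 0.0103) fell on the log2 scale. *Rarres1*, a retinoic acid receptor responder, fell from 16 and 11 counts to 1 and 2, both at or under the floor, so that no fold is given (edgeR adjusted p = 0.031). The call was lost without any 1 of the 4 libraries compared, where the highest adjusted p was 0.235, and in DESeq2. With no replicate block edgeR called 1 of the 47, *Bhlhe40*. The call of *Rbp2* in these cells was lost without either library of B73 and that of *Dhrs9* without the SB505124 library of B87 or the TGFβ1 library of B73 (log2 fold changes over all libraries left out of -2.75 to -1.56 and -2.15 to -1.43). In the interaction 0 of the 47 were called by edgeR, and 11 had an unadjusted p under 0.05. DESeq2 with the line also called 0.

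**Figure D4:**
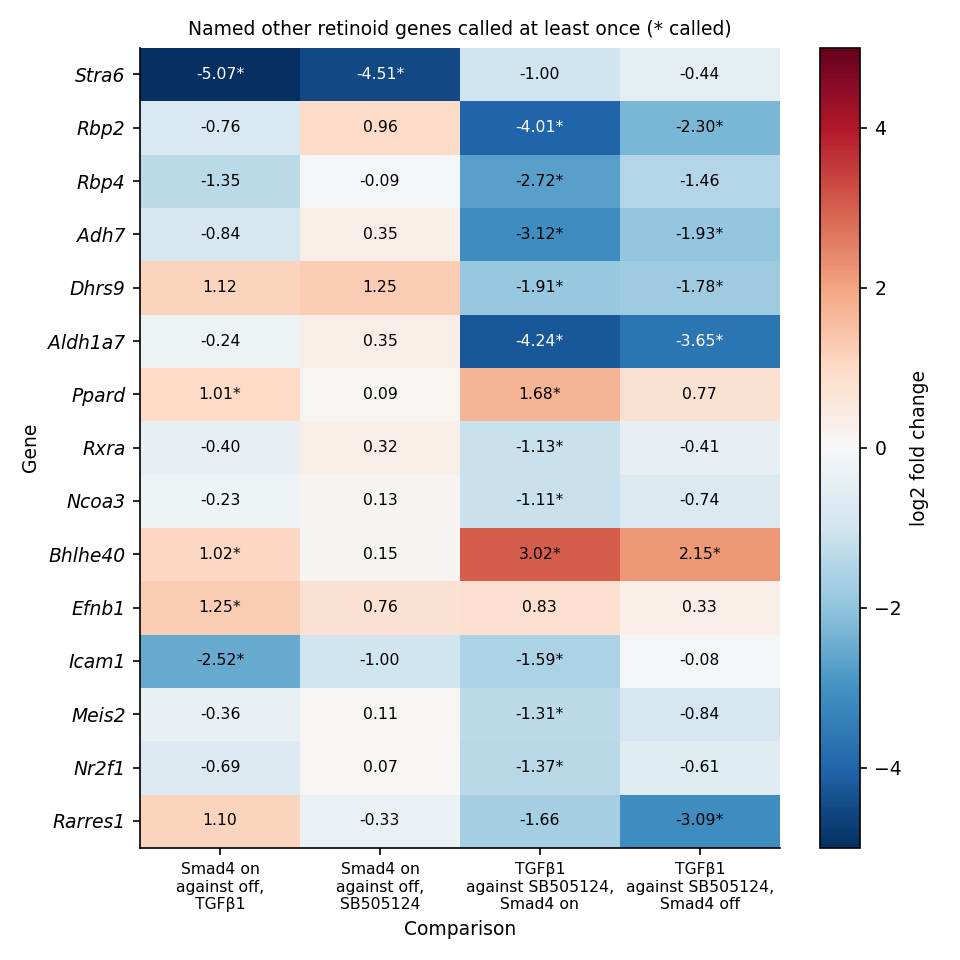
Log2 fold changes, as colour and printed value, of the other retinoid genes named in the text that were called in at least 1 of 4 comparisons (columns), with an asterisk on each call. *Stra6* is at -5.07 and -4.51 between Smad4 states, and *Aldh1a7* and *Bhlhe40* are at -4.24 and 3.02 with TGFβ1 in Smad4-on cells. The fitted value of *Rarres1* in Smad4-off cells rests on 1 and 2 counts under TGFβ1. Those of *Stra6* between states rest on Smad4-on counts near or under the floor.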

How the data were processed

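The authors prepared stranded poly(A) RNA libraries, and the submitters' processing notes name FastQC 0.11.5, Trimmomatic 0.36, STAR 2.5.3a, featureCounts 1.6.3 and GRCm38 (mm10). The deposited table holds raw counts per gene for the 8 libraries, not normalized, with transcript lengths and positions. Strand and multimapping settings were not stated. Groups came from the sample labels. The members and lists were chosen with earlier results of these data known.

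CPM used TMM-normalized library sizes in edgeR 4.0.16 (R 4.3.3). Differences were tested with edgeR's quasi-likelihood F-test after filterByExpr (14301 genes), with all 8 libraries, 4 groups and the line in the model, and Benjamini-Hochberg adjustment. SEs were approximated from the fold change and the F statistic. Changes per line used a prior count of 2. Each line, named in the titles, went through all 4 groups. As a check of this pairing, each line's distance from its group mean was correlated across tested genes for 6 pairs of groups (r = 0.642 to 0.774). No separate cultures of a line are stated, so p-values measure the spread between these libraries. Named genes were the 9 members, *Smad4*, *Aldh1a7*, up to 6 called other retinoid genes per comparison by size of change, and the 3 genes most correlated with each member. DESeq2 1.42.0 and other filters, scalings and rules were alternatives. Shared stretches of 75 bases came from GENCODE M21 transcripts. Scripts were tested on simulated counts. Some genes are not reported here by themselves, and counts and medians include them.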

Additional observations from a re-analysis of the deposited data

Results flagged for a closer look

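*Aldh1a1* was called in the interaction of state and treatment in edgeR. Since the members were picked with these contrasts known, this is a description and no support for a difference. The log2 fold change on restoration under TGFβ1 minus that under SB505124 was -1.13, with the same direction in both lines. The call was lost whenever a library was left out and with no replicate block.

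*Rbp2*, a cellular retinol-binding protein, moved in opposite directions with *Smad4* under the 2 treatments in both lines. On restoration its log2 fold change was -0.54 in B73 and -0.79 in B87 under TGFβ1, and 1.04 in B73 and 0.81 in B87 under SB505124. These 4 values rest on 1 library a side, and the difference was not tested at the level of the single line. In the fit over both lines *Rbp2* was called neither within a treatment nor in the interaction. Groups of 2 libraries allow no test for a library that stands apart.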

How the results depend on the processing

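No log2 fold change that was called turned its direction under any alternative. Counts of called genes that moved by over 1.5 times are given, with the reported count first. Smaller moves are not listed.

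Of the 8 members, *Smad4* under TGFβ1 called 3, and 0 with no replicate block (edgeR) or with glmTreat, which tests against 2-fold. TGFβ1 in Smad4-off cells called 2, and 0 with no replicate block or glmTreat but 4 in a fit of only the 4 libraries compared. The interaction called 1, *Aldh1a1*, and 2, with *Dhrs3*, in DESeq2 with the line or with no filter on low counts. It called 0 with no replicate block in edgeR or DESeq2 or with glmTreat. Between the lines 1 was called, and 3 with no fold rule, 4 with no filter, and 0 with at least 10 counts in every library, where *Cyp26b1* is not tested, or with glmTreat. Leaving out 1 library at a time gave 1 to 3 members for *Smad4* under TGFβ1, 0 to 0 under SB505124, 3 to 6 and 1 to 3 for TGFβ1 in Smad4-on and Smad4-off cells, 0 to 0 in the interaction and 1 to 2 between lines. The log2 fold change of *Smad4* stayed within 1.67 to 1.78 under TGFβ1 and 1.52 to 1.72 under SB505124.

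Of the 47 other retinoid genes, *Smad4* under TGFβ1 called 5, and 3 with at least 10 counts in every library, 8 in DESeq2 with the line, 1 with glmTreat, 9 with no filter and 0 with no replicate block. Under SB505124 it called 1, and 2 with no fold rule or in DESeq2 with the line, 3 with no filter, and 0 with at least 10 counts or with no replicate block. TGFβ1 in Smad4-on cells called 14, and 22 with no fold rule, 8 with no replicate block and 8 with glmTreat. In Smad4-off cells it called 6, and 13 with no fold rule, 3 with at least 10 counts, 3 in DESeq2 without the line, 2 with glmTreat and 1 with no replicate block. The interaction called 0, and 2 with no filter. Between the lines 9 were called, and 17 with no fold rule, 2 with at least 10 counts and 4 with glmTreat. Leaving out 1 library gave 2 to 6, 0 to 2, 12 to 15, 3 to 7, 0 to 0 and 5 to 8 in the same order.

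A fit without the line cannot give the comparison of lines. Where the alternative does not itself test fewer or more genes, the cause of a move was not tested. Members with few counts, *Crabp2*, *Rarb*, *Cyp26b1* and *Dhrs3* under TGFβ1, are limited by depth.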

Other observations

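Several genes of the retinoic acid response list differed between the lines, and they were chosen after their values had been seen. Of the 20 tested, 5 were called (8.37% over all tested genes), among them *Hoxa3*, *Hoxb3*, *Hoxb4* and *Hoxb5*, which pattern the body axis and are textbook targets of retinoic acid. *Hoxa3* was higher in B87, with 29 to 49 counts against 3 to 23 in B73 (log2 difference 2.03 ± 0.407, edgeR adjusted p = 0.0155). *Hoxb3*, *Hoxb4* and *Hoxb5* were lower in B87. *Hoxb3* had 0 or 1 count in B87 against 6 to 12 in B73 (edgeR adjusted p = 0.00823), *Hoxb4* had 0 to 3 against 8 to 12 (adjusted p = 0.0267) and *Hoxb5* had 0 to 6 against 8 to 19 (adjusted p = 0.0436). Leaving out 1 library ended the call of *Hoxb5* in each case (highest adjusted p = 0.155), that of *Hoxb4* in 5 of 8 cases (0.0794) and that of *Hoxa3* without the Smad4-on SB505124 library of B73 (0.0504). These 4 genes are low, and each line is 1 tumor.

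Retinol carriers differed between the lines as well. *Rbp2* (log2 difference -1.93 ± 0.268, edgeR adjusted p = 0.00357) and *Rbp4* (-1.5 ± 0.295, adjusted p = 0.0141) were lower in B87. *Aldh1a7*, like *Aldh1a1*, was lower in B87 (log2 difference -2.54 ± 0.25, edgeR adjusted p = 0.000863). The call of *Rbp4* was lost without the Smad4-on SB505124 library of B73 (0.0532).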
